A study of Rattus norvegicus with 18 samples.

Results

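The retinoid binding and metabolism genes described here are 9 genes, Rbp2, Crabp1, Crabp2, Aldh1a1, Aldh1a2, Aldh1a3, Rarb, Rarg and Cyp26b1, out of 14217 genes named on the array. They were taken by name: each probe set whose annotation gives 1 of these symbols was used, which came to 11 of 31042 probe sets, and the probe set with the highest mean log2 signal stood for its gene. Rarg and Cyp26b1 had a second probe set, which is given beside the first. The list was chosen by gene function after the difference of Rbp2 between dysplasia and normal fibroblasts had been seen, so that the fibroblast values of Rbp2 are given as a description with no test.

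RNA was measured on Affymetrix rat genome arrays in 18 samples from the tongues of male Sprague Dawley rats, in 6 groups of 3. Dysplasia and squamous cell carcinoma (SCC) came from rats that drank 0.002% 4-nitroquinoline-1-oxide (4NQO), a carcinogen that damages DNA, and were killed between week 14 and week 22 once lesions could be seen. Normal tissue came from control rats on distilled water. At each stage the epithelial layer was split off with dispase to give the epithelia samples, and the connective tissue was digested with collagenase and plated briefly, the adherent cells giving the fibroblasts samples. The methods state that each sample pooled 3 rats. Nothing in the sources used here shows which rats entered which pool, and p-values here speak only of the variation among these samples.

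Retinoic acid is the active form of vitamin A. Cells take up retinol, carry it on binding proteins, oxidize it to retinal and then, through the Aldh1a enzymes, to retinoic acid, which binds nuclear receptors that pair with retinoid X receptors on DNA. Cyp26 enzymes break retinoic acid down. In mucosa such as that of the mouth, retinoids are known to hold back keratinization, and Rarb is known as a gene that is itself switched on by retinoic acid.

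Before the results, the labels were set against marker genes, each given as the mean log2 signal over its list. The 15 epithelial markers measured stood between 12.42 and 12.70 in the 9 epithelia samples and between 10.29 and 12.32 in the 9 fibroblasts samples. The 17 fibroblast markers stood between 11.50 and 12.92 in fibroblasts and between 6.44 and 11.47 in epithelia, with SCC epithelia 2 at 11.47 and SCC epithelia 1 at 9.62. The fibroblasts samples thus carried epithelial RNA at every stage, and 2 SCC epithelia samples carried stromal RNA. Endothelial markers (10 genes) reached 9.89 to 11.33 in fibroblasts, and macrophage markers (17 genes) 8.74 to 11.65, so that these samples are mixtures of stromal cells. Fewer cells of a type and less RNA per cell cannot be told apart in such samples.

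In each fibroblast group samples 1 and 2 were close to each other and sample 3 stood apart. The SD of the log2 difference between samples 1 and 2 over all probe sets ranged from 0.260 to 0.297 over the 3 groups, against 0.522 to 0.662 for pairs with sample 3. The third normal sample had a macrophage mean of 8.74 against 11.29 and 10.94 in the other two, while the third dysplasia sample had 10.58 against 8.83 and 8.75. The epithelial mean of the third sample was the lowest of its group at each stage (10.29, 11.52 and 11.61). Fibroblast results are therefore given with all 9 samples and also without the third sample of each stage, a version added after the data were seen. The sources do not say whether samples 1 and 2 of a group came from separate rats, and the p-values without the third samples rest on these close pairs, so their spread may be smaller than that between independent pools.

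**Figure D1:**
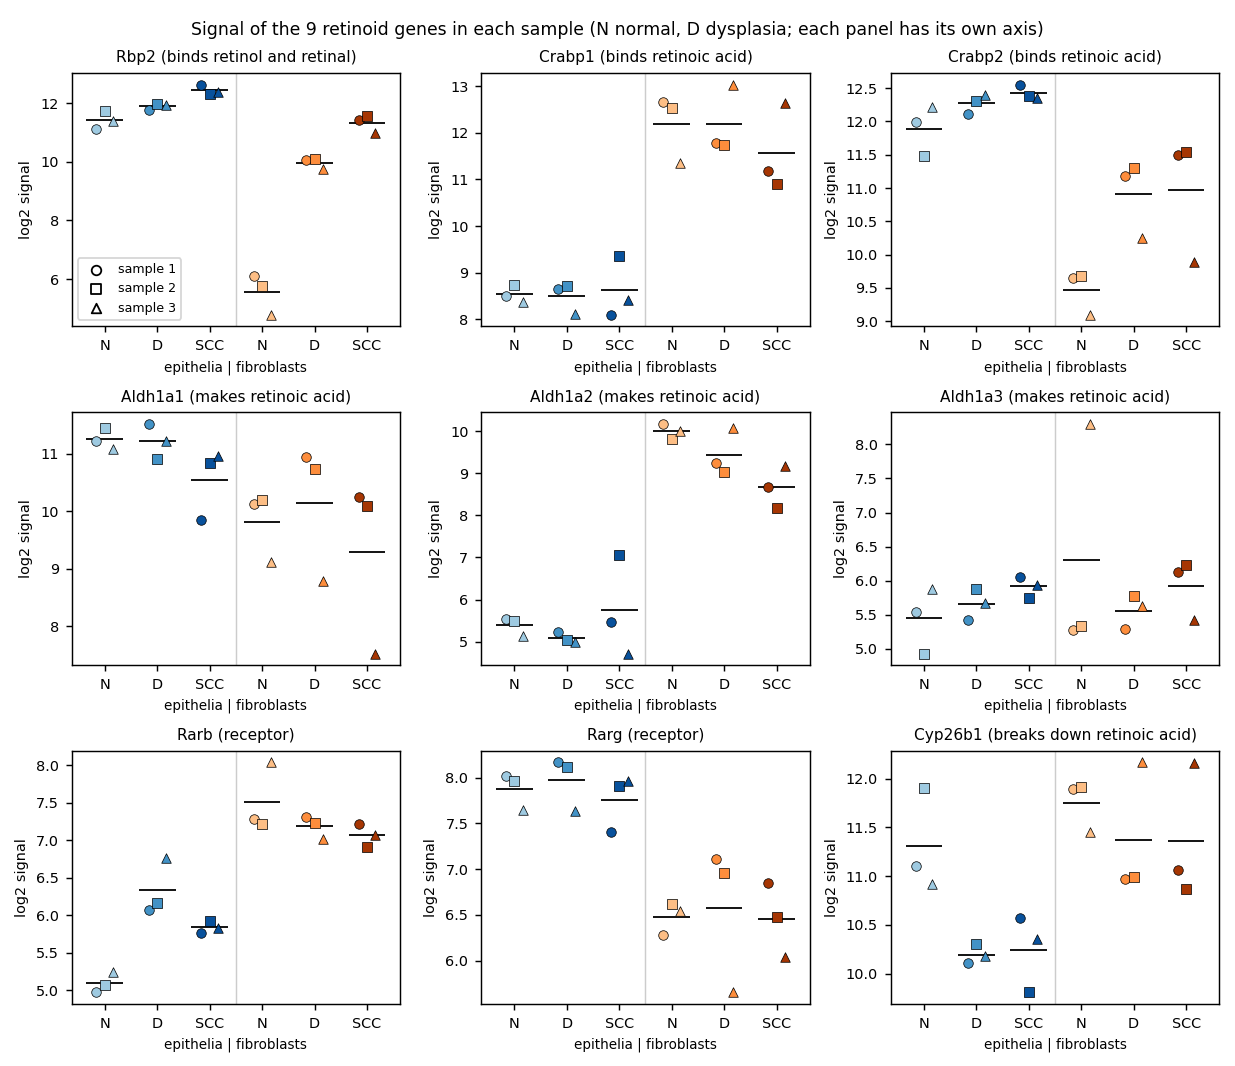
Log2 signal of the 9 retinoid genes (1 probe set each) in every sample; the horizontal axis gives normal, dysplasia and SCC for epithelia (blue) and fibroblasts (orange), points are samples and bars are means of 3. Rbp2 in normal fibroblasts (4.79 to 6.10) lies far below the other groups, Rarb in normal epithelia (4.97 to 5.25) lies below both lesion groups, and the third fibroblasts samples (triangles) depart from the other two for Crabp1, Aldh1a1 and Cyp26b1.

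The promoter windows of 2 genes are shown because Rbp2 had the widest range of the 9 genes and because Rarb is a known target of its own pathway. They are RefSeq windows on the rat assembly GRCr8, each with 250 bases before and 50 after an annotated transcript start, on the plus strand. The Rbp2 window is chr8:107963292-107963591 and the Rarb window is chr15:11336142-11336441, both inside the spans that the annotation gives to these genes (chr8:107958670-107983850 and chr15:10837252-11482037). Capitals mark matches to the motifs searched on both strands.

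Rbp2 promoter: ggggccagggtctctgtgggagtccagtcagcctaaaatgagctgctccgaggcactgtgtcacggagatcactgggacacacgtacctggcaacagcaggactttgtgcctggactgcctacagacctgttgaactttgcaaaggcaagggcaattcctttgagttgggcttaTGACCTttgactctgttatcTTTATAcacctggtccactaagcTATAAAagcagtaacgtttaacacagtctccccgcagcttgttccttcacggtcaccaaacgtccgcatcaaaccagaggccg

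Rarb promoter: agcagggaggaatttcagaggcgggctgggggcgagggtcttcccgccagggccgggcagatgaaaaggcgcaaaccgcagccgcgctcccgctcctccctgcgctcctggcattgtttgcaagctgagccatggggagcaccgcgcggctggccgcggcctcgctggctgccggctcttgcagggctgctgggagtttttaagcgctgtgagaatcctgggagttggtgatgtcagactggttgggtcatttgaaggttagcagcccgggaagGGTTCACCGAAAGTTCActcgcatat

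In the Rarb window the capitals are a direct repeat with 5 bases between its repeats, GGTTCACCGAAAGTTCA, which starts 25 bases after the start and matches the letters NGNTCANNNNNNGNTCA, the form that the retinoic acid receptors are known to bind. Of 33469 promoter windows of this length, 1.14% held such a match, and of the 10 windows of the 9 genes (Rarg has 2) it was found in that of Rarb alone. Repeats with 2 bases between (NGNTCANNNGNTCA, 0.974% of windows) and with 1 base between (NGNTCANNGNTCA, 0.986%) matched none of the 10. The capitals of the Rbp2 window are the single repeat AGGTCA read on the minus strand, found in 16.2% of all windows and also in a Rarg window, and the letters TATAAA on each strand, found in 14.2% of windows and also in that of Crabp2. No match overlapped another in these windows. A match describes letters in a window and does not show that a protein binds there.

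All tests below are from limma over all genes, with p-values adjusted (Benjamini-Hochberg) across the 31042 probe sets, and a change was called at an adjusted p under 0.05. The p-values take no account of the choice of the 9 genes. Values are log2 signals, and differences are log2 differences with their standard error (SE). Levels of different probe sets are not compared with each other.

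Of the binding proteins, Rbp2, which binds retinol and retinal and is best known from the absorptive cells of the gut, was higher in lesion than in normal fibroblasts and higher in SCC than in normal epithelia. Its log2 signal was 6.10, 5.76 and 4.79 in normal fibroblasts 1 to 3. It was 10.06, 10.09 and 9.75 in dysplasia fibroblasts, and 11.43, 11.55 and 10.97 in SCC fibroblasts. The 3 groups did not overlap, and every lesion sample lay above every normal sample. The normal values lay below the medians of those arrays (6.83 to 6.86), no detection calls were used, and the size of the differences from normal depends on this dim level. Dysplasia exceeded normal fibroblasts by 4.42 (SE 0.31), a 21.4-fold difference and the 3rd highest of 14217 genes. SCC exceeded normal by 5.76 (SE 0.31), a 54.3-fold difference and the 2nd highest, and exceeded dysplasia by 1.35 (SE 0.31). Without the third samples these differences were 4.14, 5.56 and 1.41. With an offset of 16 added before the log they were 4.00 and 5.33 from normal.

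Most epithelial markers were also above normal in the lesion fibroblasts samples. Of the 15 epithelial markers, 14 were above normal in dysplasia fibroblasts and 15 in SCC fibroblasts, with median differences of 0.66 and 0.64. Against medians of 0.00 and 0.02 over all genes, 0 of the 15 were called in dysplasia and 1 in SCC, with 4 at an unadjusted limma p under 0.05 in each. Of all genes, 0.169% were called in dysplasia and 16.2% in SCC fibroblasts. At the unadjusted limma p under 0.05 there were 2836 of 14217 genes in dysplasia and 5143 in SCC fibroblasts. Keratinization genes differed by more. Sprr1b, of the cornified envelope, had a log2 signal of 9.03, 8.80 and 6.79 in normal, 12.43, 12.48 and 11.43 in dysplasia and 13.14, 13.04 and 11.83 in SCC fibroblasts. Of 8 keratinization genes measured, Krt1, the keratin of cornifying layers, was higher in dysplasia than in normal fibroblasts by 5.53 (SE 0.64, adjusted p = 0.0162 in limma). In SCC fibroblasts Krt1, Sprr1b and Tgm1, the enzyme that crosslinks the envelope, were called higher. All 8 were above normal in both lesions, with medians of 2.19 in dysplasia and 1.27 in SCC fibroblasts. From dysplasia to SCC fibroblasts, where Rbp2 differed by 1.35, the epithelial markers had a median of 0.05 (10 of 15 above 0). The keratinization genes had a median of -0.34 there (2 of 8 above 0). Dysplasia fibroblasts 3 had an epithelial marker mean of 11.52, a Sprr1b signal of 11.43 and an Rbp2 signal of 9.75. In normal fibroblasts 1 and 2 these were 11.77 and 11.79 for the markers, 9.03 and 8.80 for Sprr1b and 6.10 and 5.76 for Rbp2. Neutrophil markers (10 genes) were also above normal, 9 of 10 in dysplasia (median 1.03) and all 10 in SCC fibroblasts (median 2.68, 9 called). The part of epithelial or neutrophil RNA in the Rbp2 difference was not tested.

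**Figure D2:**
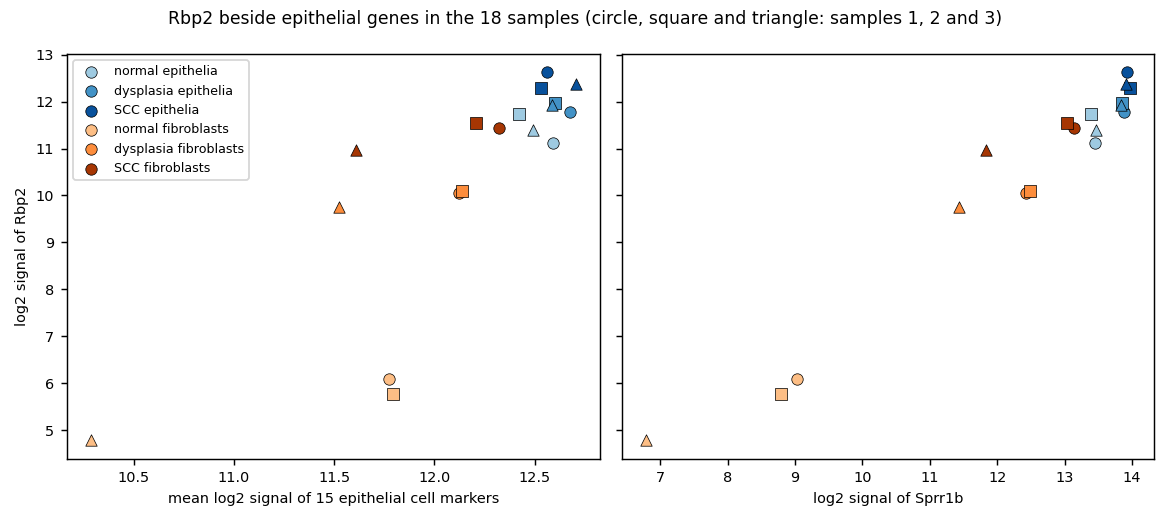
Log2 signal of Rbp2 (vertical axis) in the 18 samples against the mean log2 signal of 15 epithelial markers (left) and against the log2 signal of Sprr1b (right); colours are groups and shapes are sample numbers. Dysplasia fibroblasts 3 (Rbp2 9.75) lies to the left of normal fibroblasts 1 and 2 (6.10 and 5.76) on the marker axis, while on the Sprr1b axis the normal fibroblasts lie apart from all other samples.

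In epithelia Rbp2 rose from normal to SCC. The signal was 11.13, 11.74 and 11.40 in normal, 11.78, 11.97 and 11.93 in dysplasia and 12.62, 12.30 and 12.37 in SCC epithelia, and the 3 groups did not overlap. SCC exceeded normal by 1.01 (SE 0.17, adjusted p = 0.0027 in limma), a 2.01-fold rise that was called with each sample left out in turn. Dysplasia exceeded normal by 0.47 (SE 0.17), with an adjusted p of 0.0906 in limma, and SCC exceeded dysplasia by 0.54 (SE 0.17, adjusted p = 0.227). The epithelial marker mean in the same samples differed little between the stages (12.42 to 12.59 in normal and 12.53 to 12.70 in SCC epithelia). The genes whose pattern over the 18 arrays was most like that of Rbp2, among 9236 genes with a mean log2 signal above 7, were Gjb2 (a gap junction protein, Pearson r = 0.980), Sprr1b (0.980) and Ocm (0.970). These samples share their group means and cell mixtures, so the correlations only describe the pattern.

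Crabp1, which binds retinoic acid in the cytoplasm, had a higher signal in every fibroblasts sample than in any epithelia sample. Its signal was 12.67, 12.54 and 11.35 in normal, 11.77, 11.73 and 13.03 in dysplasia and 11.17, 10.91 and 12.64 in SCC fibroblasts. In epithelia it lay between 8.10 and 9.36, the highest value being that of SCC epithelia 2, which also had the highest fibroblast markers of its group. The fibroblast groups overlapped through the third samples, which were lowest of the 3 in normal tissue and highest in both lesions. With all 9 samples no stage difference was called (dysplasia minus normal -0.01, SE 0.55; SCC minus normal -0.61, SE 0.55). Without the third samples the differences from normal were -0.85 (SE 0.13, adjusted p = 0.0069 in limma) in dysplasia and -1.57 (SE 0.13, adjusted p = 5e-04) in SCC. In samples 1 and 2 the fibroblast marker mean was 12.50 and 12.33 in normal fibroblasts. It was 11.55 and 11.52 in dysplasia and 11.79 and 11.50 in SCC fibroblasts. The part of the cell mixture in the Crabp1 differences was not tested. The genes most like Crabp1 over the 18 arrays were Aox1 (Pearson r = 0.988), Ccl11 (0.987) and Mme (0.986). Aox1 codes for an aldehyde oxidase, Ccl11 for the chemokine eotaxin and Mme for the membrane protease neprilysin.

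Crabp2, which hands retinoic acid to the receptors in the nucleus, was highest in epithelia and higher in lesion than in normal fibroblasts in every sample. In fibroblasts its signal was 9.65, 9.67 and 9.10 in normal, 11.18, 11.29 and 10.25 in dysplasia and 11.50, 11.54 and 9.88 in SCC. The lowest lesion value was that of SCC fibroblasts 3, still above the highest normal value. The differences from normal were 1.44 (SE 0.46) in dysplasia and 1.50 (SE 0.46) in SCC, with adjusted p-values of 0.180 and 0.0552 in limma. With the sample number as a block these became adjusted p = 0.0265 and 0.0064, and without the third samples the differences were 1.58 (adjusted p = 7.6e-04) and 1.86 (2.1e-04). Crabp2 was higher in epithelia than in fibroblasts (by 2.42 in normal tissue), and 14 and 15 of the 15 epithelial markers lay above normal in dysplasia and SCC fibroblasts. The part of epithelial RNA in the Crabp2 differences was not tested. In epithelia the signal was 11.99, 11.48 and 12.21 in normal and 12.55, 12.38 and 12.35 in SCC, a difference of 0.53 (SE 0.18, adjusted p = 0.0550) in groups that did not overlap.

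Of the enzymes that make retinoic acid, Aldh1a2, known as the retinal dehydrogenase of connective tissue and of the embryo, had a signal of 10.18, 9.81 and 10.00 in normal, 9.24, 9.02 and 10.06 in dysplasia and 8.66, 8.18 and 9.17 in SCC fibroblasts. In epithelia it stayed between 4.72 and 5.55 apart from SCC epithelia 2 at 7.06. SCC lay below normal fibroblasts in every sample, while dysplasia overlapped normal through dysplasia fibroblasts 3. Aldh1a2 fell by 1.33 on the log2 scale (SE 0.31, adjusted p = 0.0258 in limma) from normal to SCC fibroblasts, a 2.51-fold fall and the 188th lowest difference of 14217 genes. The call was lost when any of normal fibroblasts 1, 2 or 3 or SCC fibroblasts 1 or 2 was left out (adjusted p = 0.0502 to 0.0977) and held with the block (0.0075) and without the third samples (-1.57, adjusted p = 0.0021). It was lost with the arrays aligned on spike-in controls (-0.72, adjusted p = 0.136), where the median of all genes moved to 0.63. Beside it, all 17 fibroblast markers were below normal in SCC fibroblasts, with a median of -0.63 and 2 called, and 9 of 10 neutrophil markers were called higher. Over all genes 16.2% were called in this comparison. The part of the cell mixture in the fall was not tested.

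The genes most like Aldh1a2 were Lpar1, Zbtb20 and Adgra2 (Pearson r = 0.996 each over 18 arrays). Lpar1 codes for a receptor of lysophosphatidic acid, Zbtb20 for a zinc finger repressor and Adgra2 for an adhesion receptor.

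Aldh1a1, an aldehyde dehydrogenase that also makes retinoic acid from retinal, had no called difference in the main fits. These hold all samples, with the values as deposited and no block or array weights. Its signal was 11.21, 11.45 and 11.08 in normal and 9.85, 10.84 and 10.96 in SCC epithelia. These groups did not overlap, but the difference of -0.70 (SE 0.29) had an adjusted p of 0.0953 in limma. In fibroblasts samples 1 and 2 lay at 10.12 and 10.20 in normal, 10.93 and 10.73 in dysplasia and 10.24 and 10.09 in SCC, with the third samples lower at 9.12, 8.78 and 7.53. Without the third samples Aldh1a1 was higher in dysplasia than in normal fibroblasts by 0.67 (SE 0.12, adjusted p = 0.0118) and its SCC minus dysplasia difference was -0.66 (adjusted p = 0.0186).

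Aldh1a3, another enzyme of this step, lay between 4.93 and 6.23 in 17 samples and at 8.30 in normal fibroblasts 3. No comparison of the main fits called it. In fibroblasts the difference of SCC from normal was -0.38 (SE 0.70) with all samples and 0.87 (SE 0.17, adjusted p = 0.0087) without the third samples; the sign differed between these versions.

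Cyp26b1, which breaks retinoic acid down, fell in the epithelia of both lesions. Its signal was 11.11, 11.91 and 10.92 in normal, 10.11, 10.30 and 10.18 in dysplasia and 10.57, 9.81 and 10.36 in SCC epithelia, so that every lesion sample lay below every normal sample. The fall was 1.11 (SE 0.27, adjusted p = 0.0285 in limma) to dysplasia and 1.06 (SE 0.27, adjusted p = 0.0182) to SCC, each a little over 2-fold (2.16 and 2.09). The second probe set gave -0.97 (adjusted p = 0.0404) and -0.99 (0.0212). The call in dysplasia was lost when normal epithelia 1 or 2 or any dysplasia sample was left out (adjusted p = 0.0589 to 0.0946) and with the block (0.0587). The call in SCC was lost without SCC epithelia 2 (0.0503). That sample had the lowest Cyp26b1 signal of the epithelia, 9.81, and their highest fibroblast marker mean, 11.47. Normal epithelia 2 had the highest Cyp26b1 signal, 11.91, and the highest fibroblast marker mean of the normal group, 7.93 against 6.49 and 6.44. Without normal epithelia 2 the dysplasia minus normal difference was -0.82. The part of stromal RNA in the fall was not tested. Normal fibroblasts had Cyp26b1 signals of 11.45 to 11.91.

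In fibroblasts Cyp26b1 stood at 11.90, 11.91 and 11.45 in normal, 10.97, 10.99 and 12.17 in dysplasia and 11.06, 10.87 and 12.16 in SCC. Samples 1 and 2 were lower in both lesions than in normal tissue and the third samples were higher. With all samples the differences from normal were -0.38 and -0.39 (SE 0.40 each) and not called. Without the third samples they were -0.93 (SE 0.11, adjusted p = 0.0037) and -0.94 (SE 0.11, adjusted p = 0.0014). Fibroblast markers were also lower in samples 1 and 2 of both lesions than in those of normal tissue. The part of the cell mixture in the Cyp26b1 differences was not tested.

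Of the receptors, Rarb rose in the epithelia of dysplasia and SCC. Its signal was 4.97, 5.07 and 5.25 in normal, 6.07, 6.16 and 6.76 in dysplasia and 5.76, 5.92 and 5.83 in SCC epithelia, without overlap of any 2 groups. The rise to dysplasia was 1.24 (SE 0.18, adjusted p = 0.0047 in limma), 2.36-fold and the 245th highest of 14217 genes, and it was called with each sample left out. The rise to SCC was 0.74 (SE 0.18, adjusted p = 0.0148) and lost its call without normal epithelia 1 (0.0539). SCC minus dysplasia was -0.49 (SE 0.18, adjusted p = 0.278). The probe set is dim in epithelia, below the medians of those arrays (6.53 to 6.77) in 8 of 9 samples.

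The fibroblasts samples carried more Rarb, with signals between 6.91 and 8.03. Fibroblast markers were higher than in normal in 9 of 17 genes in dysplasia epithelia (median 0.29, 1 called) and in 16 of 17 in SCC epithelia (median 2.70, 5 called). SCC epithelia 2, with the highest fibroblast mean (11.47), had a Rarb signal of 5.92, and dysplasia epithelia 3, with a fibroblast mean of 7.13, had the highest Rarb of the epithelia, 6.76. Macrophage markers were above normal in 14 of 17 genes in dysplasia epithelia (median 0.84, 2 called) and in 16 of 17 in SCC epithelia (median 2.67, 13 called). Over all genes 17.5% were called in dysplasia and 34.9% in SCC epithelia. The part of stromal and macrophage RNA in the rise was not tested. In fibroblasts Rarb did not pass the test (dysplasia minus normal -0.33, SE 0.22; SCC minus normal -0.44, SE 0.22), and without the third samples these differences were 0.02 and -0.19 (SE 0.13 each). The change differed between the cell types, epithelia minus fibroblasts, by 1.56 (SE 0.29, adjusted p = 0.0100 in limma) for dysplasia and by 1.19 (SE 0.29, adjusted p = 0.0135) for SCC. These became 1.22 (adjusted p = 0.0112) and 0.93 (0.0187) without the third fibroblasts samples. Under the spike-in alignment they were 1.83 (adjusted p = 0.0548) and 0.64 (0.269), where the median of all genes was 0.24 and -0.62.

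Rarg, the main retinoic acid receptor of skin and mucosal epithelium, was called in no stage comparison. Its first probe set lay between 7.40 and 8.17 in epithelia and between 5.65 and 7.11 in fibroblasts, and with all samples the largest stage difference of either probe set was -0.21 (SE 0.20). The first probe set gave, without the third samples, 0.58 (SE 0.18, adjusted p = 0.0549 in limma) for dysplasia minus normal fibroblasts and -0.37 (SE 0.18) for SCC minus dysplasia.

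**Figure D3:**
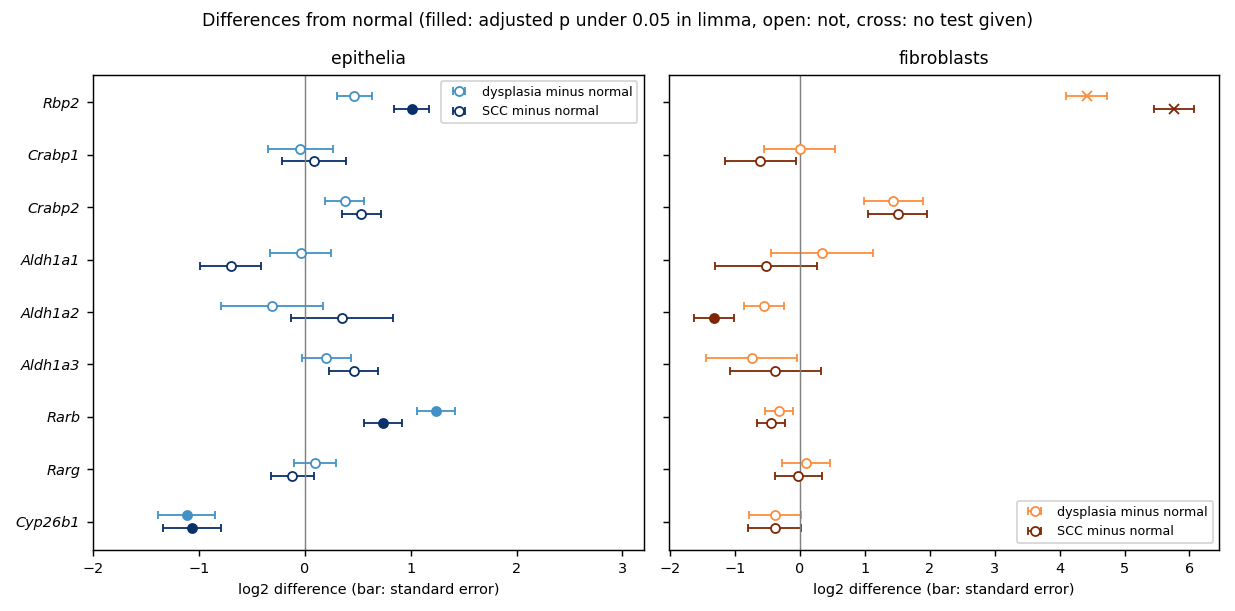
Log2 difference from normal (horizontal axis) of each gene in dysplasia and in SCC, in epithelia (left) and fibroblasts (right), 3 samples a group; bars are standard errors, filled points have an adjusted p under 0.05, open points do not, and crosses are given with no test. The axes of the panels differ: Rbp2 in fibroblasts reaches 5.76, while in epithelia no difference exceeds 1.24.

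Counted over the 9 genes, the stage comparisons called few, and nothing is read from the place of Rbp2 in the fibroblast counts, since it was known when the list was chosen. In epithelia 2 were called in dysplasia (Rarb higher, Cyp26b1 lower), where 17.5% of all genes were called, and 3 in SCC against normal (Rbp2 and Rarb higher, Cyp26b1 lower), where 34.9% were. Between SCC and dysplasia epithelia 0 of 9 were called against 0.0352% of all genes, with 3 at an unadjusted limma p under 0.05 (Rbp2, Aldh1a1 and Rarb) and 1 by an unadjusted t-test. Of all 14217 genes, 2208 had an unadjusted limma p under 0.05 there. In fibroblasts 1 was called in dysplasia (Rbp2) against 0.169%, and 2 in SCC (Rbp2 and Aldh1a2) against 16.2%. Between SCC and dysplasia fibroblasts 0 of 9 were called against 1.93%. Apart from Rbp2, only Aldh1a2 was at an unadjusted limma p under 0.05 there, against 2416 of 14217 genes, and no member was by the t-test. With the block the fibroblast counts were 2 for dysplasia (Crabp2 added), 1 for SCC minus dysplasia and 3 for SCC minus normal, where 5.9%, 3.09% and 26.8% of all genes were called. Without the third samples they were 6, 3 and 6, where 32.6%, 17% and 47% of all genes were called. The comparisons with normal share the normal samples. Over all 31042 probe sets, the base for the second probe sets, 14.5% were called in dysplasia epithelia and 29.9% in SCC epithelia. The difference of the change between the cell types was called for 4.84% (dysplasia) and 18.6% (SCC) of all genes. Apart from Rbp2, whose value is a description, Rarb was the 1 member called at each lesion stage in the main fit. Without the third fibroblasts samples Crabp2 was called too, at -1.20 in dysplasia and -1.33 in SCC (adjusted p = 0.0105 and 0.0024 in limma). Crabp1 was then called in SCC, at 1.65 (adjusted p = 0.0126).

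**Figure D4:**
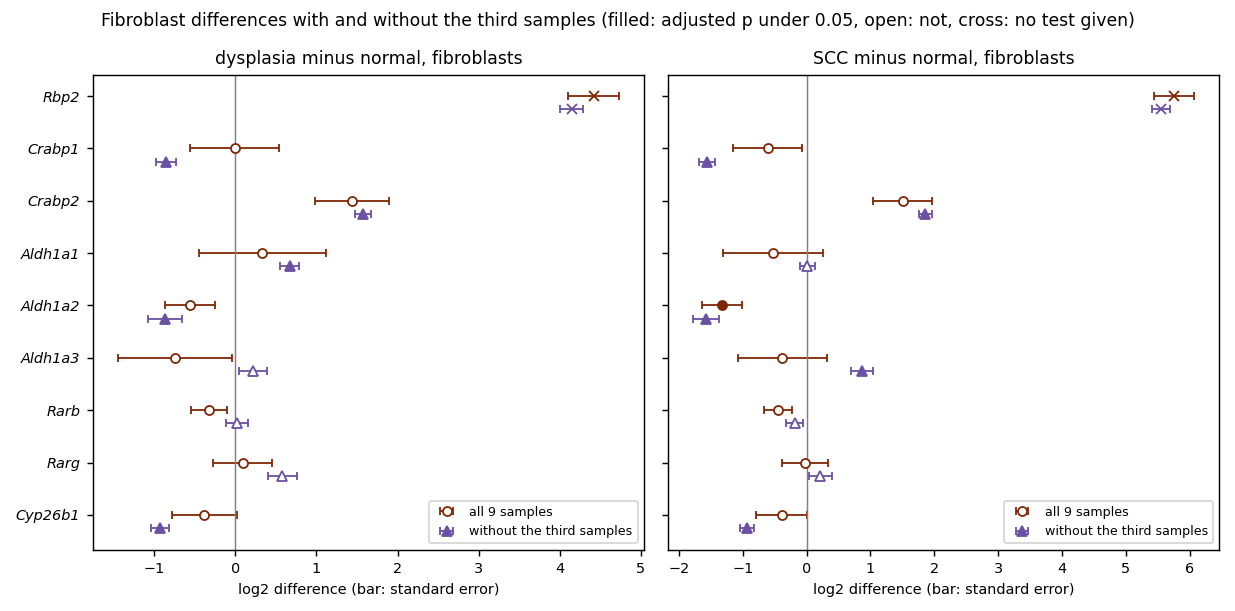
Log2 difference from normal (horizontal axis) of each gene in dysplasia (left) and SCC fibroblasts (right) with all 9 samples (circles) and without the third sample of each stage (triangles); bars are standard errors, filled points have an adjusted p under 0.05, and crosses are given with no test. Without the third samples the standard errors are smaller and Crabp1, Crabp2, Aldh1a2 and Cyp26b1 are called in both lesions, while Aldh1a3 in SCC moves from -0.38 to 0.87.

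Between the cell types 6 of 9 genes were called in normal tissue, a share close to the 66.6% of all genes. In dysplasia 7 were called against 53.5%, and in SCC 7 against 41.4%. These counts hold Rbp2, whose values are a description. Over all probe sets the shares called were 63.4%, 50.4% and 38.3%. Rbp2, Crabp2 and Rarg were higher in epithelia, and Crabp1, Aldh1a2 and Rarb were higher in fibroblasts, at all 3 stages, with 1 exception under another scaling: for Rarb in dysplasia the difference turned to 0.27 (adjusted p = 0.430) with the arrays aligned on spike-in controls, where the median of all genes stood at 1.18.

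For Rbp2 the difference, epithelia minus fibroblasts, was 5.87 (SE 0.26) in normal, 1.92 in dysplasia and 1.12 (SE 0.26) in SCC, and the last was 0.94 without the third fibroblasts samples. For Crabp2 it was 2.42, 1.36 and 1.45, with adjusted p-values up to 0.0066 in limma. For Rarg it was 1.39, 1.40 and 1.30 (SE 0.31, adjusted p = 0.0043 or less), but the second Rarg probe set gave only 0.57 (adjusted p = 0.0308), 0.38 (0.153) and 0.56 (0.0538). The Rarg probe sets thus differed in the size of the difference.

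For Crabp1 the differences were -3.65, -3.69 and -2.95 (SE 0.48 each), and for Aldh1a2 -4.60, -4.35 and -2.92 (SE 0.43 each). For Rarb the differences were -2.42, -0.85 and -1.23 (SE 0.21 each, adjusted p = 0.0031 or less). Cyp26b1 did not pass the test in normal tissue (-0.45, SE 0.37) and was lower in epithelia in dysplasia (-1.18, adjusted p = 0.0142) and SCC (-1.12, adjusted p = 0.0251). The Cyp26b1 calls were lost without the third dysplasia fibroblasts sample (adjusted p = 0.0858), without SCC fibroblasts 3 (0.142) and without SCC epithelia 2 (0.0968), and the second probe set gave adjusted p = 0.0616 and 0.0424. Without the third fibroblasts samples of all stages they were -0.79 (0.0250) and -0.72 (0.0478). In the main fit Aldh1a1 and Aldh1a3 were called at no stage. Aldh1a1 in normal tissue was called higher in epithelia without the third fibroblasts samples (1.09, adjusted p = 0.0044), without SCC fibroblasts 3 (0.0150), without dysplasia fibroblasts 3 (0.0348) and with the block (0.0373).

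**Figure D5:**
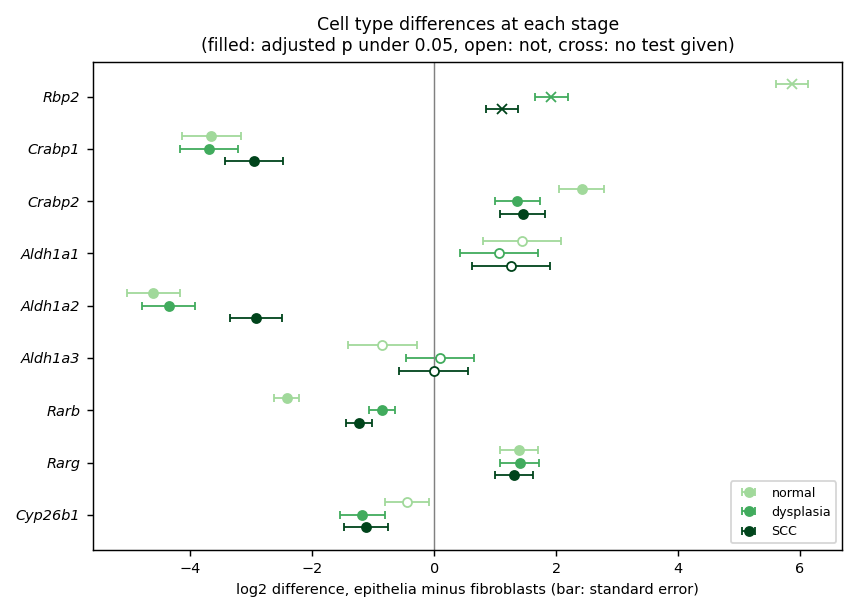
Log2 difference, epithelia minus fibroblasts (horizontal axis), of the 9 genes in normal tissue, dysplasia and SCC, 3 against 3 samples; bars are standard errors, filled points have an adjusted p under 0.05, open points do not, and crosses are given with no test. Points right of 0 are higher in epithelia; Rbp2 goes from 5.87 to 1.12, and Rarb in dysplasia (-0.85) is the point that turns to 0.27 under the spike-in alignment.

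Other genes of the pathway were read from lists of known members, whose counts in SCC epithelia stand against the 34.9% of all genes called there. Counts in dysplasia epithelia stand against 17.5%, in dysplasia fibroblasts against 0.169% and in SCC fibroblasts against 16.2%. Of 8 genes of retinol transport and storage, 2 were higher and 0 lower in SCC epithelia (median 0.11 against -0.03 over all genes). Lrat, which stores retinol as its ester, had a signal of 5.30, 5.49 and 5.06 in normal and 6.62, 6.99 and 6.46 in SCC epithelia, a rise of 1.41 (SE 0.20, adjusted p = 0.0014 in limma). In normal tissue Lrat differed by -2.40, epithelia minus fibroblasts, and its highest SCC epithelia value was that of sample 2, which had a fibroblast marker mean of 11.47. The part of stromal RNA in the rise was not tested. Dgat1, which can also esterify retinol, rose by 1.10 in SCC epithelia (adjusted p = 0.0042), by 0.74 in dysplasia epithelia (0.0393) and by 0.90 in SCC fibroblasts (0.0034). Stra6, a membrane receptor for retinol carried by its plasma binding protein, was higher in epithelia than in fibroblasts by 2.61, 2.91 and 2.69, but its probe sets differed in direction, so this holds only for the brightest of them.

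Of 16 retinol and retinal dehydrogenases, 2 were higher and 7 lower in SCC than in normal epithelia, with a median of -0.38 against -0.03 over all genes. Adh7, the alcohol dehydrogenase of upper digestive epithelium that oxidizes retinol, had a signal of 10.21, 9.10 and 9.84 in normal and 10.82, 10.80 and 11.75 in dysplasia epithelia, a rise of 1.40 (SE 0.33, adjusted p = 0.0256), and a rise of 1.14 in SCC. Rdh14 was the other one higher. Among the lower ones, Dhrs7 fell by 1.23 (adjusted p = 0.0014) and Dhrs9 by 0.70 (0.0140). In fibroblasts 0 of 16 were called in dysplasia, with 3 at an unadjusted limma p under 0.05, and 1 in SCC, Rdh11, higher by 0.53. There 0.169% (dysplasia) and 16.2% (SCC) of all genes were called. In dysplasia fibroblasts 2836 of 14217 genes had an unadjusted limma p under 0.05. Between the cell types in normal tissue, the difference was -5.79 for Adh1c and 4.03 for Rdh12.

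Of 11 receptors and partners other than the members, 3 were lower and 0 higher in SCC epithelia: Rxrg (-0.65), Ncoa1 (-0.57) and Ppard (-0.44). Nrip1, a corepressor of nuclear receptors, was the 1 called in SCC fibroblasts (-0.86, adjusted p = 0.0183). Of the 2 other clearance enzymes measured, Cyp2s1 rose in SCC fibroblasts by 1.16 (adjusted p = 0.0287) and was higher in epithelia than in fibroblasts by 3.66, 3.18 and 2.17 at the 3 stages. The part of epithelial RNA in its rise in fibroblasts was not tested.

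Genes known to be induced by retinoic acid moved both ways in epithelia. Of 9 measured, 1 was higher and 3 lower in SCC than in normal (median -0.10 against -0.03 over all genes). Gprc5a, an orphan receptor first found as retinoic acid-induced, rose from 5.58, 5.43 and 5.32 in normal through 6.66, 6.54 and 7.27 in dysplasia to 8.68, 7.82 and 7.81 in SCC, by 1.38 and 2.66 (adjusted p = 0.0122 and 3e-04). In normal tissue Gprc5a differed by -2.53, epithelia minus fibroblasts. Fibroblast and macrophage markers were higher in SCC than in normal epithelia (medians 2.70 and 2.67). The part of stromal RNA in the Gprc5a rise was not tested. Rarres1, named for its response to a retinoid, fell by 1.33 in dysplasia and fell by 2.10 in SCC (adjusted p = 0.0238 and 0.0017), and Bhlhe40 by 0.50 and 0.62. In fibroblasts 0 of 9 were called at either lesion stage in limma, with 2 (dysplasia) and 1 (SCC) at an unadjusted p under 0.05. The shares of all genes called there were 0.169% (dysplasia) and 16.2% (SCC). At the unadjusted limma p under 0.05 there were 2836 (dysplasia) and 5143 (SCC) of 14217 genes.

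Of 8 keratinization genes that retinoids are known to restrain, 2 were higher and 1 lower in both lesions in epithelia, with medians of -0.06 and -0.12. Krt1 rose by 3.09 in each (adjusted p = 0.0020 and 3e-04) and Sprr1b by 0.41 and 0.50, whereas Ivl, involucrin, fell by 2.28 and fell by 3.15 (adjusted p = 0.0151 and 0.0018). Of 6 mucosal keratins, Krt7 and Krt8 were higher in SCC epithelia (1.55 and 1.97) and in SCC fibroblasts (2.19 and 3.26). Krt8 differed by -1.61 in dysplasia and -1.89 in SCC, epithelia minus fibroblasts. The part of stromal RNA in its rise in epithelia was not tested.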

How the data were processed

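RNA of 18 pooled tongue samples was measured on 1 array each. The intensity values were summarized and normalized by the authors before they were deposited; RMA in Affymetrix Expression Console is named in the processing notes of the submitters, without versions. The deposited values are linear, from 1 to 21626.06, and were taken to log2 as they stood. The step that gave linear values with a floor at 1 is not stated. Of 31099 probe sets, 57 controls were left out; 20826 of the 31042 tested name 1 gene, 436 several and 9780 none. The number of arrays limits the precision.

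Each cell type was fitted over its 9 arrays with limma 3.58.1 in R 4.3.3, with Benjamini-Hochberg adjustment over all 31042 probe sets; each of 14217 genes was then read from its probe set of highest mean. Differences between the cell types, and of their changes, came from 1 fit of 18 arrays. An exact permutation test of 3 against 3 cannot go below 0.1 and was not used. The scripts were tested on simulated data. The members and the gene lists were chosen with earlier results of these data known. The text names every member and, from each list and comparison, up to 4 called genes of largest difference; the 3 most alike genes are given for the 3 members of widest range. Promoter windows from RefSeq (GRCr8) were found for 9 of 9 genes.

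Same-number samples were checked for pairing by correlating deviations from the group means. In dysplasia and SCC fibroblasts every pair lay above 0.1 (0.321 to 0.592), and in the other stage comparisons not every pair did (normal and dysplasia fibroblasts 0.0255 to 0.194, normal and SCC fibroblasts 0.0658 to 0.229, epithelia -0.109 to 0.210), so the fits carry no block. Over probe sets with a mean log2 above 7 the fibroblast pairs lay between 0.122 and 0.321 (normal and dysplasia), 0.180 and 0.362 (normal and SCC) and 0.584 and 0.703 (dysplasia and SCC), and blocked values stand beside the fibroblast results that they move. Alternatives were a filter on probe sets with a mean log2 below 7, quantile normalization, alignment on spike-in controls, an offset of 16, other moderation, array weights, the replicate block, 1 fit of all arrays, the methods' t-test, the probe set of highest variance, each array left out, and the third fibroblasts samples left out.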

Additional observations from a re-analysis of the deposited data

Results flagged for a closer look

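The change from normal differed between the cell types for several genes, by limma's interaction over all 18 arrays, given here as epithelia minus fibroblasts on the log2 scale. For Rbp2 the difference of the change was -3.95 for dysplasia and -4.75 for SCC, a description with no test since its fibroblast rise was known beforehand. For Rarb it was 1.56 for dysplasia and 1.19 for SCC (adjusted p = 0.0100 and 0.0135 in limma).

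Among the keratinization genes, the difference of the change was -3.49 and -3.96 for Sprr1b and -2.56 and -3.20 for Ivl, dysplasia first, and -3.16 for Tgm1 in SCC. In normal tissue Sprr1b, Ivl and Tgm1 were higher in epithelia than in fibroblasts by 5.23, 5.24 and 5.62. In SCC alone the difference of the change was also past the threshold for Krt19 at -3.42, Ppard at -0.75, Cyp2s1 at -1.48, Gprc5a at 1.98 and Meis2 at 1.82. The part of epithelial RNA in fibroblasts samples and of stromal RNA in epithelia in these differences was not tested. Groups of 3 samples were not searched gene by gene for single samples far from the rest. The third fibroblasts samples were set apart on their differences over all probe sets.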

How the results depend on the processing

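Single-gene values were followed for the 44 pairs of gene and comparison with an unadjusted limma p under 0.05 in the main fit. Under the alternatives 999 of these values kept direction and side of the threshold, 29 lost a call, 40 gained one and 1 reversed. The reversed value was Rarb, epithelia minus fibroblasts in dysplasia, 0.27 with arrays aligned on spike-in controls. Other pairs are not counted, such as Aldh1a3 in SCC minus normal fibroblasts, which went from -0.38 to 0.87 without the third samples. Under the spike-in alignment the median difference of all genes reached 1.18 between cell types and 0.73 between fibroblast stages. It reached 0.20 with quantile normalization and 0.0951 in the main fits. Members called of 9 moved as follows. Counts that involve fibroblasts hold Rbp2, whose fibroblast values are a description, and nothing is read from its place in them. In dysplasia epithelia the main count of 2 became 1 without dim probe sets (6 members tested, Rarb not among them), 1 with the replicate block, 1 in 1 fit of all arrays, 0 by the t-test (2 at an unadjusted p under 0.05) and 3 under the spike-in alignment and with array weights (Rbp2 added). In SCC against normal epithelia 3 became 1 by the t-test and 4 with quantile normalization, the offset and other moderation (Crabp2 added). In dysplasia fibroblasts 1 became 4 with array weights, 2 with the block, 2 in 1 fit of all arrays, 0 by the t-test (2 at an unadjusted p under 0.05) and 6 without the third samples. For SCC minus dysplasia fibroblasts 0 became 1 under the spike-in alignment, the offset, the block and 1 fit of all arrays, 2 with array weights and 3 without the third samples. In SCC against normal fibroblasts 2 became 5 with array weights, 1 by the t-test and 6 without the third samples. For the difference of the change, 2 became 1 without dim probe sets for both stages and 1 under the spike-in alignment for dysplasia, and for SCC 5 with array weights and 4 without the third samples. Apart from calls where fewer members were tested, the cause was not tested. The replicate block also gave Aldh1a1 a call between the cell types in normal tissue (adjusted p = 0.0373).

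With each array left out, the counts ranged from 1 to 2, 0 to 0 and 2 to 4 in epithelia (dysplasia minus normal, SCC minus dysplasia, SCC minus normal), from 1 to 1, 0 to 1 and 1 to 3 in fibroblasts, from 6 to 7 between the cell types at each stage, and from 2 to 2 and 2 to 4 for the difference of the change. All of these except the epithelia counts hold the fibroblast values of Rbp2, which are a description. The SCC fibroblasts count was 1 without normal fibroblasts 1, 2 or 3 or SCC fibroblasts 1 or 2, and the difference of the SCC change was 4 without SCC fibroblasts 3. No detection calls were used, so how far dim probe sets such as Rbp2 in normal fibroblasts, Rarb in epithelia and Aldh1a3 lie above background is unknown here.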
